A study of Saccharomyces cerevisiae with 24 samples.

Results

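The mRNA of 10 glycogen metabolism genes of budding yeast was followed through 24 RNA-seq libraries. The genes were chosen by ORF name from their textbook roles in making and breaking down glycogen, and they are 10 of the 6692 ORFs counted. All 10 passed the filter on low counts, which kept 6616 ORFs. The strains were WT (JS1256), *snf1*∆ (JS1394) and the suppressor JS1416, which carries *snf1*∆ and *cyc8-G337S*. All are haploids of the BY4741/BY4742 background that share its *his3*, *leu2*, *met15* and *ura3* deletions, and *SNF1* was replaced with *kanMX4* in both mutants. JS1416 is a single spontaneous isolate of JS1394 that regrew in an aged culture, and *cyc8-G337S* is the mutation that genome sequencing of the isolate found. Cultures grew at 30°C with 2% glucose and were sampled in log phase (5 hr in the labels, a later hour in the study's methods), at 24 hr and at 48 hr. WT and *snf1*∆ had 3 libraries at each time, and JS1416 had 1 at log, 2 at 24 hr and 3 at 48 hr. The labels give YPD as the medium, while the methods give SC and triplicate cultures.

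Glycogen is a branched polymer of glucose that yeast builds up as the sugar in the medium runs low and draws on later in starvation. Phosphoglucomutase and UDP-glucose pyrophosphorylase supply the activated sugar, glycogenin starts the chain, glycogen synthase lengthens it, the branching enzyme branches it, and phosphorylase and the debranching enzyme take it apart. Snf1, the yeast AMP-activated kinase, relieves glucose repression and is known to be needed for normal glycogen storage, and Cyc8 is a subunit of the Cyc8-Tup1 co-repressor, which the repressor Mig1 recruits to glucose-repressed genes.

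The promoters are shown because 8 of the 10 genes hold the letters AGGGG, the core of the stress response element bound by Msn2 and Msn4, on either strand of the 500 bp ahead of the start codon. Of all 6000 protein-coding genes, 34.1% hold AGGGG in that window and 8.13% hold it at least 2 times, against 80% and 70% of the 10 genes. The 5 windows below, from the genes with at least 2 copies ahead of any neighbouring gene, are each 200 bases of the R64 assembly (the release behind sacCer3), written 5′ to 3′ on the strand of the gene, and the capitals mark AGGGG or its complement CCCCT.
PGM2 (chrXIII:477813-478012, - strand): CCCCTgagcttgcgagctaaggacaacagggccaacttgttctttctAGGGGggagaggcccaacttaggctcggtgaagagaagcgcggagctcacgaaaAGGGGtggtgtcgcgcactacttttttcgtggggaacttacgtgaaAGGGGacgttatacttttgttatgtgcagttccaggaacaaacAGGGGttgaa
GLC3 (chrV:132746-132945, + strand): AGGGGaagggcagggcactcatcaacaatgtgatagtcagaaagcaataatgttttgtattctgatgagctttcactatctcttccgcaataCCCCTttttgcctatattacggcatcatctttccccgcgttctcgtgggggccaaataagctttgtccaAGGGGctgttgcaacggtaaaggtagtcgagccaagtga
GSY1 (chrVI:176659-176858, - strand): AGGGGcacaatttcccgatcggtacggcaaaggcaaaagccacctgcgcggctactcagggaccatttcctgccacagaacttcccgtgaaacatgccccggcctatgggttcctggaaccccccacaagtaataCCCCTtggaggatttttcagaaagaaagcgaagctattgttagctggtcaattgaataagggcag
GSY2 (chrXII:660339-660538, + strand): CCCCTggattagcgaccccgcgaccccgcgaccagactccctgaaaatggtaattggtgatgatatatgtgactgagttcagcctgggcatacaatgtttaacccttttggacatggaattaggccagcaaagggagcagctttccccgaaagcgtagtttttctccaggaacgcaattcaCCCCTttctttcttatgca
GPH1 (chrXVI:860949-861148, + strand): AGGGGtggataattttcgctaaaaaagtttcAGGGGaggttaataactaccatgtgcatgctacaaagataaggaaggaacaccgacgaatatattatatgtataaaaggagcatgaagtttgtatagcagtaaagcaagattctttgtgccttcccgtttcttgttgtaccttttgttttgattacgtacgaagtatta
*PGM2* had the most copies, with 5 in these 200 bases. *UGP1* holds 4 copies and *GLG2* 2, but the neighbouring gene begins 169 bp upstream of *UGP1* and 41 bp upstream of *GLG2*, so all 6 copies lie farther away than the near end of that neighbour. *GDB1* holds 1 copy, and *GLG1* and *GAC1* have none in this window. The Mig1 core GCGGGG is in 3 of the 10 windows, against 5.77% of all genes, and GTGGGG is in 4, against 8.52%. The post-diauxic shift element AGGGAT is in 3 of 10, against 15.4%. The GCGGGG and AGGGAT of *UGP1*, at 265 and 300 bases before its start codon, also lie farther away than the near end of its neighbour. A match is a run of letters and not a measured binding site. Matches overlapped only in *UGP1*, where copies of AGGGG and GCGGGG share an end base.

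The libraries held from 747098 to 29070805 counts over ORFs. *SNF1* itself had 46.2 to 71.7 CPM (its counts relative to the TMM-scaled size of the library) in the 9 WT libraries and 0.182 to 4.08 CPM in the 15 libraries labelled *snf1*∆ or JS1416. CPM is a share of the mRNA in a library, so less of a transcript and more of all other mRNA cannot be told apart. At 48 hr, the library labelled *snf1*∆ replicate 3 went against its label and resembled JS1416, and the library labelled JS1416 replicate 1 resembled *snf1*∆. Over all genes, log2 CPM of *snf1*∆ replicate 3 correlated with JS1416 replicate 2 at r 0.984 and with the other *snf1*∆ libraries at 0.905 and 0.901. JS1416 replicate 1 correlated with *snf1*∆ replicates 1 and 2 at 0.984 and 0.980 and with the other JS1416 libraries at 0.928 and 0.884. Over the 10 glycogen genes, *snf1*∆ replicate 3 differed from JS1416 replicate 2 by a mean of 0.152 on the log2 scale and from *snf1*∆ replicate 1 by 1.10. JS1416 replicate 1 differed from *snf1*∆ replicate 2 by 0.162 and from JS1416 replicate 2 by 0.921. Whether they were exchanged was not tested. All 48 hr results are given with and without these 2 libraries, which also enter the spread used for the tests at log and 24 hr. They were singled out by their measured levels, these genes among them, so values without them at 48 hr are no independent test of a strain difference. Genes were called at an adjusted p under 0.05 in the quasi-likelihood test of edgeR, adjusted by Benjamini-Hochberg over the 6616 ORFs.

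All 10 glycogen genes rose in WT between log phase and 24 hr, with a median log2 fold change of 4.23 against 0.10 over all genes tested. Of all genes, 41.2% rose and 38.5% fell in that comparison. In *snf1*∆, 8 of the 10 rose (36.5% of all genes did), with a median of 1.64, while *GLG2* and *GSY1* did not pass the test. Both passed without the 48 hr libraries in the fit, *GLG2* as lower at -0.43 and *GSY1* as higher at 0.47 (edgeR adjusted p = 0.0225 for each), and with only the groups compared (0.0329 and 0.0105), and *GSY1* also without the 2 doubted 48 hr libraries (0.00878). The response was lower in *snf1*∆ than in WT for 9 of the 10 by a direct test of the difference between both responses, which called 25.6% of all genes lower. *UGP1* was the gene that did not pass. In log phase, no glycogen gene was called between *snf1*∆ and WT, where 2.12% of all genes were called in either direction by edgeR and 0 of the 10 had an unadjusted p under 0.05. With only these 2 groups in the fit, *GDB1* was called higher in *snf1*∆ at 0.36 (edgeR adjusted p = 0.0432). *GSY1* was called lower at -0.59 without the 48 hr libraries and at -0.63 without the 2 doubted ones (edgeR adjusted p = 0.0297 for each).

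**Figure D1:**
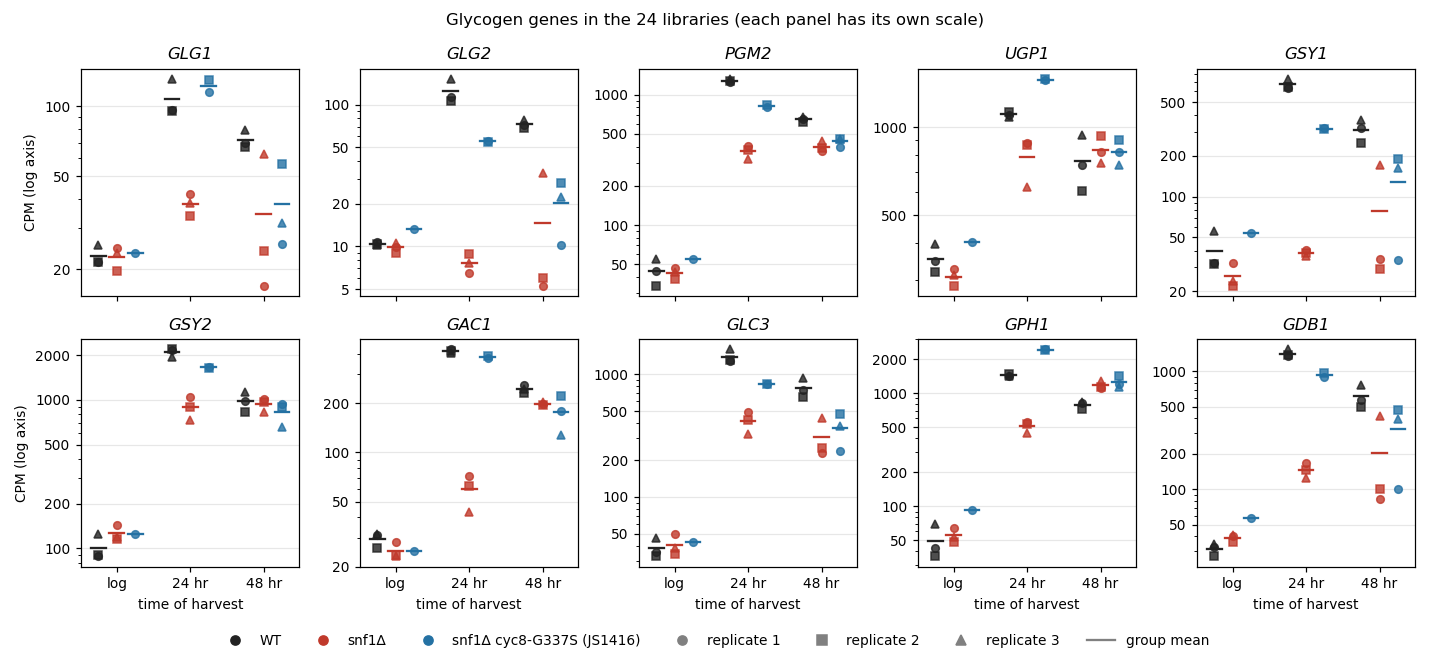
CPM after TMM scaling (log axis, each panel with its own scale) of each glycogen gene in each of the 24 libraries by time of harvest, with symbols for replicates, colours for strains and short lines for group means. At 24 hr the 3 WT libraries lie above the 3 *snf1*∆ libraries for all 10 genes, and how many of all genes do so was not counted. At 48 hr *snf1*∆ replicate 3 and JS1416 replicate 1 lie apart from their own groups for *GSY1*, *GDB1* and *GLG2*.

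Glycogenin primes new glycogen chains by adding glucose to itself, and yeast has a pair of genes for it. *GLG1* (YKR058W, chrXI:552770-554620, + strand, R64, a single coding exon like the other 9 genes) had 21.5, 21.5 and 25.3 CPM in WT at log and 96.2, 95.7 and 131 at 24 hr. In *snf1*∆ it had 24.8, 19.6 and 23.4 CPM at log and 42.1, 33.7 and 38.5 at 24 hr, and the 2 JS1416 libraries at 24 hr had 115 and 130.2. The *snf1*∆ libraries at 24 hr were thus below every WT and JS1416 library of that time, and the latter overlapped each other. The log2 fold change from log was 2.24 (SE 0.31, edgeR adjusted p = 1.29e-06) in WT and 0.76 (SE 0.30, edgeR adjusted p = 0.0337) in *snf1*∆. The call in *snf1*∆ was lost with RLE factors (edgeR adjusted p = 0.0592), with DESeq2 (0.0555) and in edgeR without *snf1*∆ replicate 2 (0.111) or 3 (0.0621) at log or 1 (0.0907) or 3 (0.071) at 24 hr.

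*GLG2* (YJL137C, chrX:154985-156127, - strand) had the largest estimated gap between the responses of both strains. It had 10.7, 10.4 and 10.3 CPM in WT at log and 113, 107 and 152 at 24 hr. In *snf1*∆ it had 9.97, 8.98 and 10.6 CPM at log and 6.49, 8.86 and 7.61 at 24 hr, so every 24 hr library was below every log library. JS1416 had 55.8 and 54.8 CPM at 24 hr, between the other strains without overlap. The log2 fold change was 3.57 (SE 0.38, edgeR adjusted p = 2.42e-08) in WT and -0.35 (SE 0.39, edgeR adjusted p = 0.449) in *snf1*∆, and the difference between both was -3.92 (SE 0.53, edgeR adjusted p = 4e-06).

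Of the genes that supply UDP-glucose, *PGM2* passed the test of a smaller rise in *snf1*∆ and *UGP1* did not. *PGM2* (YMR105C, chrXIII:475897-477606, - strand), the major phosphoglucomutase, had 44.6, 34.2 and 55.3 CPM in WT at log and 1260.4, 1273 and 1322 at 24 hr, a 28.8-fold rise. In *snf1*∆ it went from 46.6, 38.7 and 44.1 CPM to 406, 379.5 and 321, an 8.55-fold rise. JS1416 had 801 and 833 CPM at 24 hr, above all *snf1*∆ libraries and below all WT libraries. The difference between the responses was -1.75 (SE 0.22, edgeR adjusted p = 1.67e-06) on the log2 scale. *UGP1* (YKL035W, chrXI:369891-371390, + strand), the pyrophosphorylase that makes UDP-glucose, was already high in log phase, at 349, 319 and 396 CPM in WT and 326, 286 and 311 in *snf1*∆. At 24 hr it had 1104, 1129.8 and 1082 CPM in WT, 882, 869.8 and 625 in *snf1*∆ and 1445 and 1462 in JS1416, so that the suppressor was above every library of both other strains. The responses of WT and *snf1*∆ differed by -0.27 (SE 0.24, edgeR adjusted p = 0.348), with a 95% interval of -0.77 to 0.22. UDP-glucose also feeds cell wall glucan and trehalose.

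Glycogen synthase is encoded by a pair of genes. *GSY2* (YLR258W, chrXII:660716-662833, + strand), known as the main glycogen synthase of stationary phase, had 88.4, 89.8 and 125 CPM in WT and 143, 117 and 120.0 in *snf1*∆ at log. At 24 hr it had 2151, 2189.9 and 1952 CPM in WT, 1052, 897 and 735 in *snf1*∆ and 1674 and 1635 in JS1416. It therefore rose 7.06-fold without Snf1 and 20.8-fold with it, and the 24 hr groups did not overlap. *GSY1* (YFR015C, chrVI:174265-176391, - strand) encodes the second synthase. It had 32.2, 32.1 and 55.6 CPM in WT at log and 638, 644 and 741 at 24 hr. In *snf1*∆ it had 32.3, 21.9 and 23.9 CPM at log and 40.4, 38.5 and 36.2 at 24 hr, a log2 fold change of 0.56 (SE 0.52, edgeR adjusted p = 0.349). At 24 hr its WT level was 17.6-fold that of *snf1*∆, the largest estimate among the 10 genes, and JS1416 had 322 and 315 CPM. The difference between the responses was -3.52 (SE 0.74, edgeR adjusted p = 0.000469) for *GSY1* and -1.56 (SE 0.26, edgeR adjusted p = 4.53e-05) for *GSY2*.

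*GAC1* (YOR178C, chrXV:667860-670241, - strand) encodes the subunit that brings the Glc7 phosphatase to glycogen synthase, which keeps the synthase active. It had 31.2, 26.2 and 31.7 CPM in WT and 28.3, 23.7 and 23.1 in *snf1*∆ at log. At 24 hr it had 426, 417 and 401 CPM in WT, 71.9, 62.6 and 43.4 in *snf1*∆ and 378 and 386 in JS1416. JS1416 did not pass the test against WT for this gene, with a log2 difference of -0.12 (SE 0.20, edgeR adjusted p = 0.661) and a 95% interval of -0.52 to 0.29, although both of its libraries were below the 3 of WT. *GLC3* (YEL011W, chrV:133120-135234, + strand), the branching enzyme, went from 35.7, 32.8 and 45.95 CPM to 1272, 1299 and 1598 in WT. In *snf1*∆ it went from 49.5, 34.6 and 38.3 to 496, 426 and 325, and JS1416 had 836 and 828 at 24 hr. The response differed between *snf1*∆ and WT by -2.57 (SE 0.26, edgeR adjusted p = 8.86e-08) for *GAC1* and by -1.84 (SE 0.37, edgeR adjusted p = 0.000338) for *GLC3*.

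Both genes of breakdown rose together with those of synthesis. *GPH1* (YPR160W, chrXVI:861306-864014, + strand), glycogen phosphorylase, releases glucose 1-phosphate from the chain ends. It went from 42.6, 36.1 and 69.6 CPM at log to 1416, 1469.9 and 1424 at 24 hr in WT, and from 64.1, 48.7 and 53.2 to 557, 533 and 448 in *snf1*∆. JS1416 had 2449 and 2414 CPM, above every WT library. *GDB1* (YPR184W, chrXVI:902044-906654, + strand), the debranching enzyme, went from 32.7, 27.05 and 34.1 CPM to 1341, 1369 and 1539 in WT, a 45.3-fold rise, the highest estimate of the 10. In *snf1*∆ it went from 39.96, 35.8 and 41.3 to 168, 147 and 126 CPM, and JS1416 had 901 and 965. The responses differed by -1.65 (SE 0.27, edgeR adjusted p = 3.9e-05) for *GPH1* and -3.59 (SE 0.68, edgeR adjusted p = 0.000174) for *GDB1*.

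**Figure D2:**
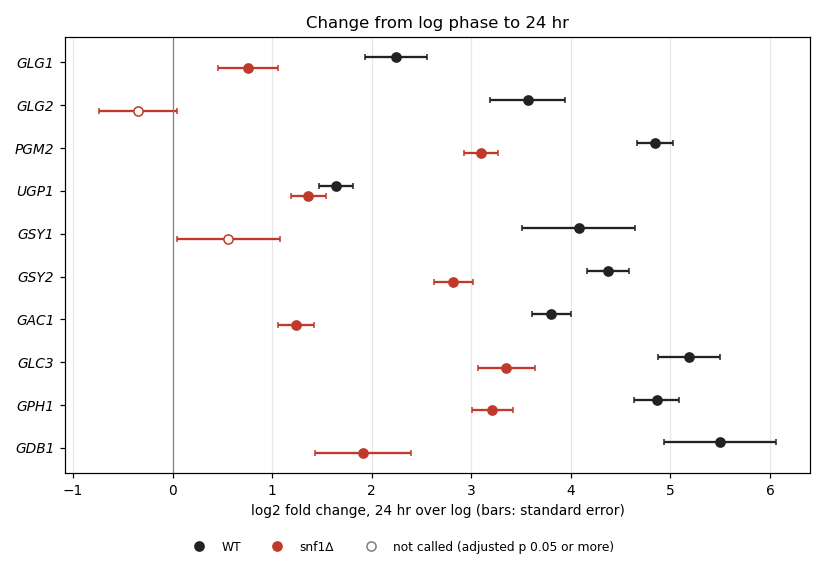
Log2 fold change of each glycogen gene from log phase to 24 hr in WT and in *snf1*∆, with bars of 1 standard error and open symbols where the change was not called at an adjusted p under 0.05. The WT points run from 1.64 for *UGP1* to 5.50 for *GDB1*, and those of *snf1*∆ from -0.35 for *GLG2* to 3.35 for *GLC3*.

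Levels can be ranked between genes per kb of ORF. In WT at 24 hr, *GSY2* led with 990.4 ± 60.2 CPM per kb (SD, n = 3), followed by *PGM2* with 751 ± 18.9, *UGP1* with 737 ± 15.8 and *GLC3* with 657 ± 85.6. *PGM2* and *UGP1*, and *UGP1* and *GLC3*, did not differ beyond their spread. *GPH1* had 530.4 ± 10.7 CPM per kb, *GSY1* 317 ± 27.1, *GDB1* 307 ± 23.2 and *GAC1* 174 ± 5.17, of which *GSY1* and *GDB1* did not differ beyond their spread. The glycogenin genes were lowest, with 108 ± 21.4 CPM per kb for *GLG2* and 58.2 ± 11.04 for *GLG1*. In *snf1*∆ at 24 hr the order was led by *UGP1* with 528 ± 96.7 CPM per kb and *GSY2* with 422 ± 74.8, and *GSY1* with 18.03 ± 1.002 did not differ from *GLG1* with 20.6 ± 2.28 beyond their spread. In JS1416 *UGP1* with 969 ± 7.95 CPM per kb (SD, n = 2) and *GPH1* with 898 ± 9.15 led.

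At 24 hr, all 10 glycogen genes were lower in *snf1*∆ than in WT, with a median log2 fold change of -1.77. Of all genes, 30.3% were called lower and 33.7% higher. *GSY1* at -4.14 (SE 0.57, edgeR adjusted p = 2.72e-06), *GLG2* at -4.01 (SE 0.40, edgeR adjusted p = 3.48e-08), *GDB1* at -3.27 (SE 0.51, edgeR adjusted p = 1.14e-05) and *GAC1* at -2.81 (SE 0.19, edgeR adjusted p = 1.68e-10) were furthest below WT. *UGP1* was the closest to WT at -0.48 (SE 0.17, edgeR adjusted p = 0.0179), and without *snf1*∆ replicate 3 at 24 hr its value was -0.34 and its call was lost (edgeR adjusted p = 0.112). Its value with library size alone, where the median of all genes was 0.51, was -0.07 (edgeR adjusted p = 0.693). The other 5 genes lay between -1.80 and -1.23.

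Comparing JS1416 with *snf1*∆ at 24 hr asks what changed in the cells that carry the suppressor. All 10 genes were higher in JS1416, with a median log2 fold change of 1.97 against -0.16 over all genes, of which 20.1% were called higher and 27.4% lower. The gain was 3.06 (SE 0.58, edgeR adjusted p = 0.00022) for *GSY1*, 2.85 (SE 0.41, edgeR adjusted p = 1.38e-05) for *GLG2*, 2.70 (SE 0.20, edgeR adjusted p = 1.6e-09) for *GAC1* and 2.67 (SE 0.52, edgeR adjusted p = 0.000317) for *GDB1* (this comparison shares the *snf1*∆ libraries with that against WT). *GPH1* gained 2.25 (SE 0.21, edgeR adjusted p = 5.24e-08) and *GLG1* 1.69 (SE 0.33, edgeR adjusted p = 0.00031). The smallest gains were those of *UGP1* at 0.88 (SE 0.19, edgeR adjusted p = 0.000698), *GSY2* at 0.89 (SE 0.20, edgeR adjusted p = 0.00121), *GLC3* at 1.001 (SE 0.29, edgeR adjusted p = 0.00723) and *PGM2* at 1.15 (SE 0.17, edgeR adjusted p = 1.75e-05). The 10 most abundant ORFs took 26.1% and 26.5% of the counts in the 2 JS1416 libraries at 24 hr, against 20.4% to 21.9% in *snf1*∆. Scaled by library size only, this comparison had a median over all genes of -0.98 and one of 1.16 over the 10 genes. On that scale *GLG1*, *PGM2*, *UGP1*, *GSY2* and *GLC3* were no longer called.

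Against WT at 24 hr, JS1416 had 2 of the 10 genes lower, where 22.7% of all genes were called lower, and 1 higher, where 20.2% were. *GLG2* at -1.17 (SE 0.39, edgeR adjusted p = 0.0199) and *PGM2* at -0.65 (SE 0.18, edgeR adjusted p = 0.00521) were lower, and *GPH1* at 0.76 (SE 0.21, edgeR adjusted p = 0.00628) was higher. Both counts were near or below the shares of all genes. The call of *GLG2* was lost without WT replicate 3 at 24 hr, at -0.99 (edgeR adjusted p = 0.072). Without JS1416 replicate 1 at 24 hr, which leaves 1 library, *GLG2* was at -1.18 and *PGM2* at -0.63. With library size alone, where the median of all genes was -0.45, *GPH1* was at 0.37 and not called (edgeR adjusted p = 0.205), and *GSY2* at -0.73, *GLC3* at -1.14 and *GAC1* at -0.51 were called lower (0.0024, 0.0129 and 0.0462). On a scale of mean log2 CPM at 24 hr where *snf1*∆ is 0 and WT is 1, JS1416 lay at 0.58 for *GLC3*, 0.64 for *PGM2*, 0.71 for *GLG2*, 0.73 for *GSY2*, 0.74 for *GSY1* and 0.82 for *GDB1*. It lay at 0.96 for *GAC1*, 1.13 for *GLG1*, 1.51 for *GPH1* and 1.79 for *UGP1*, and the median was 0.78. The position of *UGP1* rests on a small gap, between a mean log2 CPM of 10.11 in WT and 9.61 in *snf1*∆. *GPH1* and *UGP1* were the only ones of the 10 whose JS1416 libraries were both above all 3 of WT. *UGP1* was not called (edgeR adjusted p = 0.0964), and how many of all genes lay above WT in this way was not counted. The call count rose from 3 to 7 when the 2 doubted libraries were left out and to 8 when only these 2 groups were fitted, with *GSY1* then lower at -1.04 (adjusted p = 1.39e-05) and *UGP1* higher at 0.44 (0.00129) in edgeR. The share of all genes called in those fits is not given here, so the rise in count cannot be read as particular to these genes.

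**Figure D3:**
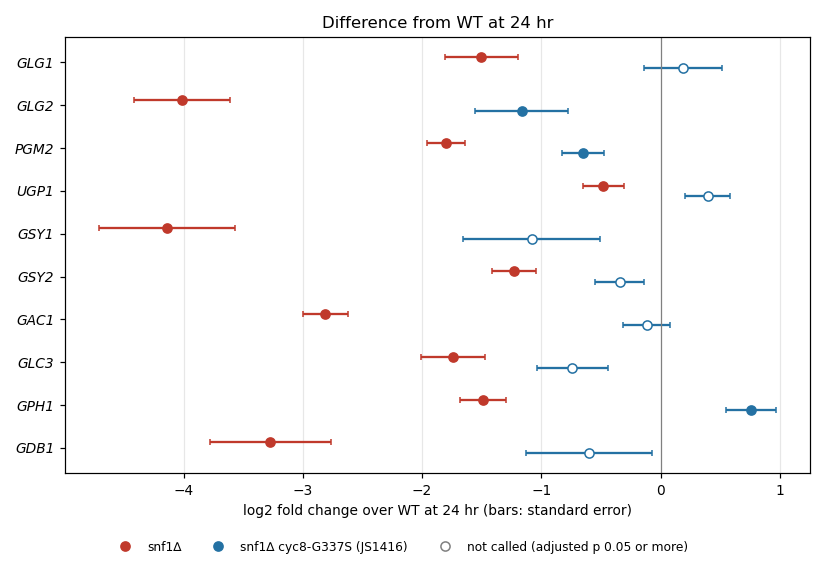
Log2 fold change over WT at 24 hr of each glycogen gene in *snf1*∆ and in JS1416, with bars of 1 standard error and open symbols where the difference from WT was not called. Every *snf1*∆ point lies below 0, from -4.14 for *GSY1* to -0.48 for *UGP1*, and the JS1416 points lie from -1.17 for *GLG2* to 0.76 for *GPH1*.

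In log phase, JS1416 had a single library, which allows no test. *GLG1*, *PGM2*, *GSY1*, *GSY2*, *GAC1* and *GLC3* were within the range of the 6 WT and *snf1*∆ libraries. *GPH1* had 91.9 CPM, against 36.1 to 69.6 in WT and 48.7 to 64.1 in *snf1*∆. *GDB1* had 57.7 CPM, against 27.0 to 34.1 and 35.8 to 41.3. *GLG2* with 13.3 CPM and *UGP1* with 404 were also above all 6 libraries of the other strains. How many of all genes lay outside the range of those 6 libraries was not counted, so this cannot be read as particular to the glycogen genes.

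From 24 to 48 hr the glycogen genes fell in WT, with a median log2 fold change of -0.85, and 7 of the 10 were called lower (19.8% of all genes were). *GDB1* at -1.21 (SE 0.47, edgeR adjusted p = 0.0471), *GSY2* at -1.10 (SE 0.18, edgeR adjusted p = 0.000126) and *PGM2* at -0.98 (SE 0.16, edgeR adjusted p = 7.1e-05) fell the most of those called. *GSY1* went from 674 to 313 CPM on average with no overlap between libraries, but missed the threshold at -1.11 (SE 0.50, edgeR adjusted p = 0.0875), as did *GLG1* and *GLG2*. Without the 2 doubted libraries, which enter the shared spread, all 10 were called lower. The share of all genes called lower in that fit is not given here, so this count cannot be set against all genes. The call of *GDB1* was lost without any 1 of the WT libraries at 48 hr (adjusted p from 0.0549 to 0.147 in edgeR). It was also lost without any 1 WT or *snf1*∆ library at log or 24 hr (0.0543 to 0.101). RLE factors (0.0536), upper-quartile factors (0.0845), robust estimation (0.0513) and at least 10 counts in every library (0.0923) ended it too. Scaled by library size alone, where the median of all genes was 0.46, *PGM2* and *GSY2* were the 2 called lower.

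In the *snf1*∆ libraries, 2 of the 10 genes rose over the same step, close to the 19.8% of all genes that rose. *GAC1* went from 71.9, 62.6 and 43.4 CPM to 196, 193 and 203, a log2 fold change of 1.74 (SE 0.18, edgeR adjusted p = 4.81e-07), and *GPH1* from 557, 533 and 448 to 1105, 1145 and 1278, a change of 1.20 (SE 0.19, edgeR adjusted p = 6.46e-05). The 3 libraries of *snf1*∆ at 48 hr were close to each other for both genes. Without the doubted libraries the same genes were the 2 called higher, where 26.2% of all genes rose, and *GLG1* at -0.91 (SE 0.24, edgeR adjusted p = 0.00296), *GLC3* at -0.79 (SE 0.20, edgeR adjusted p = 0.00178) and *GDB1* at -0.68 (SE 0.18, edgeR adjusted p = 0.00332) were called lower, where 27.8% fell. Both counts were again near the shares of all genes. *GDB1* was at 0.46 with all libraries, so its direction turned on *snf1*∆ replicate 3. In JS1416, 9 of the 10 fell from 24 to 48 hr, where 8.72% of all genes did, but 0 were called with only these 2 groups in the fit and 3 with library size alone, where the median of all genes was 0.58. The share of all genes called with only these 2 groups is not given here, so the loss of calls cannot be read as particular to these genes. Without the doubted libraries all 10 fell in JS1416, where 17.9% of all genes did.

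At 48 hr, libraries with the same strain label differed widely for some of the genes, and *snf1*∆ and JS1416 as labelled overlapped for all 10. *GSY1* had 34.4, 29.4 and 171 CPM in *snf1*∆ replicates 1 to 3 and 33.9, 189 and 163 in those of JS1416. *GDB1* had 82.8, 100.7 and 421 CPM and 100.3, 474 and 398, and *GLG2* 5.25, 6.004 and 32.9 and 10.2, 27.99 and 22.3. In each of these, *snf1*∆ replicate 3 sat with JS1416 replicates 2 and 3, and JS1416 replicate 1 sat with or near *snf1*∆ replicates 1 and 2. *GSY2* had 1014, 968 and 832 CPM in *snf1*∆, 932, 901 and 657 in JS1416 and 980.4, 826 and 1126 in WT, so the 3 strains overlapped. *UGP1* overlapped likewise.

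Against WT at 48 hr, *snf1*∆ had 6 of the 10 genes lower, where 17.7% of all genes were called lower, and *GPH1* higher at 0.57 (SE 0.19, edgeR adjusted p = 0.0263), where 18.1% were called higher. The 6 were *GLG2* at -2.26 (SE 0.41, edgeR adjusted p = 0.000281), *GSY1* at -1.99 (SE 0.53, edgeR adjusted p = 0.00663), *GDB1* at -1.60 (SE 0.48, edgeR adjusted p = 0.0136), *GLC3* at -1.33 (SE 0.27, edgeR adjusted p = 0.000668), *GLG1* at -1.04 (SE 0.33, edgeR adjusted p = 0.0173) and *PGM2* at -0.70 (SE 0.16, edgeR adjusted p = 0.00168). The call of *GPH1* was lost without WT replicate 1 or 2 or *snf1*∆ replicate 2 or 3 (edgeR adjusted p from 0.0542 to 0.0867), and those of *GLG1* (0.0533 to 0.107) and *GDB1* (0.0514 to 0.0746) without WT replicate 3 or *snf1*∆ replicate 1 or 2. With only these 2 groups in the fit, 3 of the 10 genes were called, and the share of all genes called there is not given here. Without the doubted libraries, 6 were lower (26.5% of all genes) and 1 higher (25% of all genes). *GLG2* was then at -3.70 (SE 0.25, edgeR adjusted p = 2.93e-12), *GSY1* at -3.29 (SE 0.25, edgeR adjusted p = 4.31e-11) and *GDB1* at -2.74 (SE 0.19, edgeR adjusted p = 8.81e-12). The *snf1*∆ library left out was singled out by levels that include these genes, so these p-values are no independent test. With library size alone, where the median of all genes was -0.53, *GPH1* was at 0.07 and not called (edgeR adjusted p = 0.787), and *GAC1* at -0.81 (0.00147), *GSY2* at -0.58 (0.00624) and *UGP1* at -0.37 (0.0493) were called lower. With TMM factors these 3 passed neither with nor without the doubted libraries, with values for *GSY2*, *UGP1* and *GAC1* of 0.02, 0.20 and -0.32 without the doubted libraries. At 24 hr *GSY2* and *GAC1* had been -1.23 and -2.81 from WT, but the difference between both times was not tested.

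Between JS1416 and *snf1*∆ at 48 hr, 0 of the 10 genes and 0% of all genes in either direction were called by edgeR with all libraries, while 275 of all genes and 0 of the 10 had an unadjusted p under 0.05. DESeq2 also called 0 of the 10. Without the doubted libraries, whose levels in these very genes set them apart, 5 genes passed the threshold as higher in JS1416, where 21.8% of all genes did, and their values are given as a description. They were *GSY1* at 2.48, *GLG2* at 2.27, *GDB1* at 2.26, *GLG1* at 1.32 and *GLC3* at 0.86. *UGP1*, *GAC1*, *GPH1*, *PGM2* and *GSY2* were not called and lay between -0.34 and 0.28. Against WT, JS1416 at 48 hr had 4 genes lower (15.2% of all genes), namely *GLG2*, *GLC3*, *GLG1* and *PGM2* from -1.87 to -0.56, and *GPH1* higher at 0.67 (SE 0.19, edgeR adjusted p = 0.0113) (15.8% of all genes). With library size alone, where the median of all genes was -0.38, *GPH1* was at 0.31 and not called (edgeR adjusted p = 0.251), and *GSY1*, *GSY2* and *GAC1* were called lower from -1.60 to -0.61. The call of *GLG1* was lost without any 1 of the WT libraries or JS1416 replicate 1 or 3 (edgeR adjusted p from 0.0542 to 0.163). A fit of only these 2 groups called 1 of the 10 genes, and the share of all genes it called is not given here. Without the doubted libraries, *GSY1* and *GDB1* joined the lower genes to make 6 (22% of all genes), and *GPH1* was the 1 higher at 0.70 (SE 0.19, edgeR adjusted p = 0.00402) (20.3% of all genes).

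**Figure D4:**
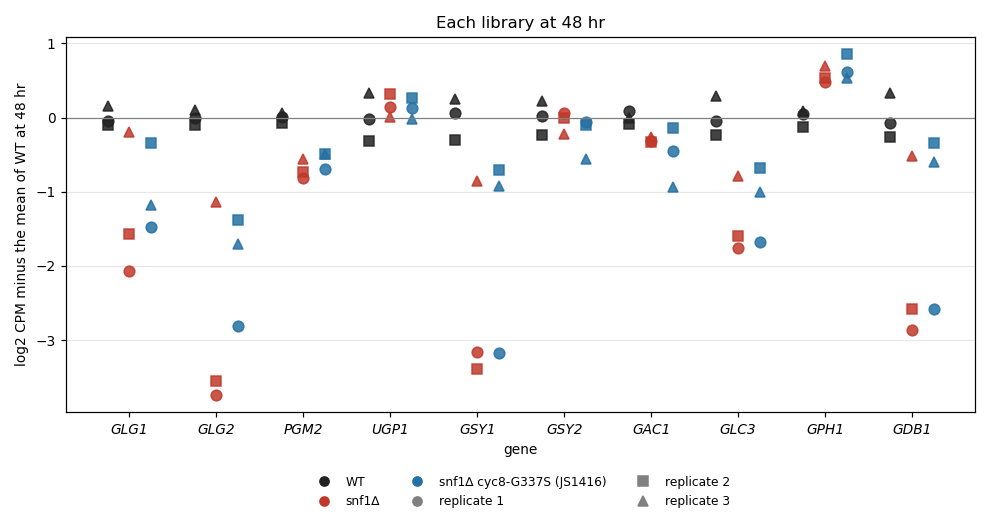
Log2 CPM of each glycogen gene in each of the 9 libraries at 48 hr, minus the mean of the 3 WT libraries at that time, with colours for the labelled strains and symbols for replicates. For *GLG1*, *GLG2*, *GSY1*, *GLC3* and *GDB1*, *snf1*∆ replicate 3 (triangle) lies above *snf1*∆ replicates 1 and 2 and JS1416 replicate 1 (circle) lies below JS1416 replicates 2 and 3, while the 3 strains overlap for *GSY2* and *UGP1* and all 6 mutant libraries lie above the 3 of WT for *GPH1*.

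*GSY1* and *GSY2*, *GLG2* and *GLG1*, and *PGM2* and *PGM1* (which is not among the 10) are paralogs for the same step. The make-up of each pair was therefore read as a share of the pair's CPM per kb. No 75-base stretch of these ORFs occurs elsewhere in the genome, and none of the 10 genes overlaps another annotated gene. *GSY1* made up 27.9% ± 2.53 (SD, n = 3) of both synthases in WT at log and 24.3% ± 2.72 (SD, n = 3) at 24 hr, against 16.9% ± 1.34 (SD, n = 3) in *snf1*∆ at log and 4.15% ± 0.495 (SD, n = 3) at 24 hr. It was 16.1% ± 0.0395 (SD, n = 2) in JS1416 at 24 hr, between the other strains. *GLG2* was 42.7% ± 2.67 (SD, n = 3) of both glycogenins in WT at log and 65.04% ± 0.573 (SD, n = 3) at 24 hr. In *snf1*∆ it was 24.7% ± 4.95 (SD, n = 3) and in JS1416 42.3% ± 2.45 (SD, n = 2) at 24 hr. In WT, the mean shares of *GSY1* at log and 24 hr differed by less than the sum of both SDs, and those of *GLG2* by more. *PGM2* went from 24.2% ± 5.25 (SD, n = 3) of *PGM2* and *PGM1* in WT at log to 96.5% ± 0.367 (SD, n = 3) at 24 hr, against 86.9% ± 0.321 (SD, n = 3) in *snf1*∆ and 94.9% ± 0.113 (SD, n = 2) in JS1416 at 24 hr. These shares are descriptions, with no test.

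**Figure D5:**
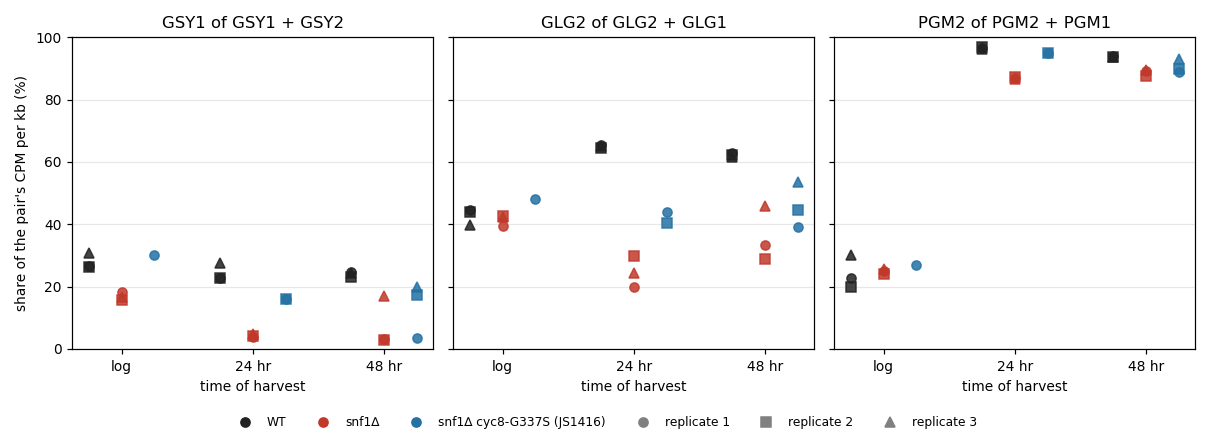
Share (%) of the pair's CPM per kb held by *GSY1*, *GLG2* and *PGM2* beside their paralogs in each library, by time of harvest, with colours for strains and symbols for replicates. At 24 hr *GSY1* has a mean share of 24.3% in WT, 4.15% in *snf1*∆ and 16.1% in JS1416.

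A further 15 genes of the pathway, mostly regulators of synthase phosphorylation, were read beside the 10. In WT, 11 of these 15 rose and 2 fell from log to 24 hr (41.2% and 38.5% of all genes), with a median log2 fold change of 1.28. At 24 hr, 8 of 15 were lower and 1 higher in *snf1*∆ than in WT (*PCL6*, a cyclin of the Pho85 kinase, at 0.33 (SE 0.14, edgeR adjusted p = 0.0465)), with a median of -0.74, where 30.3% of all genes were lower and 33.7% higher. In JS1416, 6 of 15 were higher and 0 lower than in *snf1*∆, where 20.1% of all genes were higher and 27.4% lower. *IGD1*, an inhibitor of the Gdb1 debranching enzyme, had 6.44, 8.91 and 11.3 CPM in WT at log and 1904, 1724 and 2041 at 24 hr. At 24 hr it had 179, 171 and 103 CPM in *snf1*∆ and 816 and 779.6 in JS1416. It differed between *snf1*∆ and WT by -3.64 (SE 0.30, edgeR adjusted p = 2.82e-09), the largest fall of the list, and its libraries did not overlap between the 3 strains. *SGA1*, the glucoamylase of sporulating cells, was at -2.65 (SE 0.26, edgeR adjusted p = 3.16e-08) and *GIP2*, which binds the Glc7 phosphatase, at -2.25 (SE 0.20, edgeR adjusted p = 7.29e-09). *GIP2* had the largest gain from *snf1*∆ to JS1416, at 2.63 (SE 0.21, edgeR adjusted p = 6.74e-09), with 27.9, 24.5 and 22.3 CPM against 149 and 157. *PGM1*, the minor phosphoglucomutase, fell in WT from 153, 138 and 129 CPM to 45.03, 41.6 and 53.5, opposite to *PGM2*, and *snf1*∆ did the same.

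Outside both lists, 5 genes followed the mean standardized log2 CPM of the 10 most closely among 5725 candidates. They were *ATH1* (Pearson r 0.996 over the 24 libraries), which encodes acid trehalase, YPL247C (0.995), *ALD3* (0.994), a cytosolic aldehyde dehydrogenase, *AIM17* (0.989) and *SOL4* (0.987), a 6-phosphogluconolactonase. Over the 8 libraries at 24 hr alone, their r ran from 0.990 to 0.9996. These values describe a likeness over libraries that share strains, times and scaling, and were not tested. *ATH1* had on average 304 CPM in WT, 58.5 in *snf1*∆ and 234 in JS1416 at 24 hr, and *ALD3* 1672, 146 and 1336. Among the 10 genes themselves, the closest pair was *PGM2* with *GLC3* (r 0.988) and the least alike were *GLG2* and *GPH1* (0.534). In *snf1*∆ at 24 hr *GPH1* had a mean of 512 CPM, above its log libraries, and *GLG2* one of 7.65 CPM, below them.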

How the data were processed

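Poly(A) RNA was made into 24 directional libraries, which the methods say were sequenced as 75 bp single-end reads. The authors pooled each library's lanes, aligned to sacCer3 (Bowtie2, default options), took counts per ORF with bedtools multicov and deposited these counts without normalization. The strand setting of the counting is not given in the sources used here, and none of the 10 genes overlaps another gene annotated in R64. Depth was 747098 to 29070805 counts a library, and counts cover ORFs only.

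The test used edgeR 4.0.16 (R 4.3.3, limma 3.58.1) with TMM factors, its filter on low counts by group and 1 quasi-likelihood model of 9 groups over all 24 libraries, without a block. P-values were adjusted by Benjamini-Hochberg over the 6616 ORFs kept (common dispersion 0.0378), and genes were called at 0.05. Log2 CPM used a prior count of 2. The scripts were tested on simulated data. Strain differences in response were contrasts of the same model. All 10 genes are named, with the most changed of 15 further pathway genes and the 5 genes most alike with a mean log2 CPM of at least 3. The genes and lists were chosen with earlier results of these data known. The labels do not say that libraries came from separate cultures, so p-values measure the spread between libraries, which may be technical. No 2 libraries of a group agreed within sampling noise, but some pairs came much closer than others. The chi-square of counts per degree of freedom was 1.62 for WT replicates 1 and 2 at 24 hr. Replicate 3 of that group had 18.9 and 21.4 against them. For *snf1*∆ replicates 1 and 2 at 48 hr it was 2.06. JS1416 at log, with 1 library, entered no comparison.

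Same-numbered libraries were checked for pairing, which held only for WT and *snf1*∆ at log (correlations of 0.33, 0.51 and 0.13 between their deviations from the group means). The alternatives were other scalings (RLE, upper-quartile, library size only), other filters (none, or a minimum of 10 counts throughout), DESeq2 1.42.0, robust estimation, an adjusted p under 0.01, fewer groups, the replicate block, and leaving out libraries. Promoters were read from the R64 assembly with Python 3.11.15 over 500 bp before each start codon, and all 10 genes were matched by ORF name. Figures used matplotlib 3.10.9.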

Additional observations from a re-analysis of the deposited data

Results flagged for a closer look

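In 9 of the 10 genes, the response from log phase to 24 hr differed between *snf1*∆ and WT by the test of the difference itself (an interaction contrast in edgeR, p-values adjusted by Benjamini-Hochberg). In all 9 the response was lower in *snf1*∆, and the test called 25.6% of all genes lower. For *GLG2* the estimated change in *snf1*∆ was below 0, at -0.35 and not called. On the log2 scale the difference was -3.92 for *GLG2* (adjusted p = 4e-06), -3.59 for *GDB1* (0.000174), -3.52 for *GSY1* (0.000469), -2.57 for *GAC1* (8.86e-08) and -1.84 for *GLC3* (0.000338). It was -1.75 for *PGM2* (1.67e-06), -1.65 for *GPH1* (3.9e-05), -1.56 for *GSY2* (4.53e-05) and -1.49 for *GLG1* (0.0062). With library size alone, the difference for *GLG1* was -1.14 and did not pass (0.0675).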

How the results depend on the processing

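At 24 hr, the 10 rises in WT and the 10 gains of JS1416 over *snf1*∆ were called with each of 23 libraries left out in turn (not the lone JS1416 library at log), as were the 9 smaller responses of *snf1*∆, and *snf1*∆ had 9 or 10 genes below WT. Of 4477 values of single genes under the alternatives, 4207 kept their direction and their side of the threshold, 133 were no longer called, 92 became called and 45 turned in sign, none of which had been called with all libraries.

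With library size alone in place of TMM factors, the median of all genes moved most between JS1416 and *snf1*∆ at 24 hr, from -0.16 to -0.98, and 500 genes were higher and 4388 lower there against 1332 and 1812 with TMM. At 24 hr the numbers higher and lower were 3243 and 1258 against 2229 and 2005 between *snf1*∆ and WT, and 713 and 2628 against 1339 and 1504 between JS1416 and WT. At 48 hr they were 491 and 2928 against 1195 and 1174, and 447 and 2391 against 1047 and 1005. From 24 to 48 hr they were 2853 and 244 against 1294 and 1309 in WT, 624 and 2675 against 1313 and 1422 in *snf1*∆, and 2918 and 114 against 660 and 577 in JS1416. From log to 24 hr they were 1971 and 3154 against 2725 and 2550 in WT, and 2532 and 1129 against 1937 and 1695 in the difference of responses. Of the 10 glycogen genes, those called were then 5 between JS1416 and *snf1*∆ at 24 hr, 5 between JS1416 and WT at 24 hr, 2 in WT and 3 in JS1416 from 24 to 48 hr, and *GPH1* was no longer called higher than WT in JS1416 at 24 hr (0.37) or in *snf1*∆ (0.07) and JS1416 (0.31) at 48 hr. Values that turned in sign were *GLG1* (-0.21) between JS1416 and WT at 24 hr, *GLG1* (0.05) and *PGM2* (0.02) between *snf1*∆ and WT at log, and *GSY2* (-0.38), *PGM2* (-0.30) and *UGP1* (-0.36) in *snf1*∆ from 24 to 48 hr. *UGP1* also turned between JS1416 and WT (-0.24), JS1416 and *snf1*∆ (0.13) and *snf1*∆ and WT (-0.37) at 48 hr, the last now called (edgeR adjusted p = 0.0493) as were *GSY2* (-0.58) and *GAC1* (-0.81), and in the difference of responses (0.07).

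With at least 10 counts in every library, which removed *GLG2*, 4 genes were called in WT from 24 to 48 hr and *UGP1* was at 0.02 between JS1416 and *snf1*∆ at 48 hr. At an adjusted p under 0.01, 4 were called in WT from 24 to 48 hr, 4 between *snf1*∆ and WT and 3 between JS1416 and WT at 48 hr. With only the groups compared, the counts were 0 in JS1416 from 24 to 48 hr, 1 between *snf1*∆ and WT at log (*GDB1*) with *GLG1* at 0.01, 3 between *snf1*∆ and WT at 48 hr, and 8 at 24 hr and 1 at 48 hr between JS1416 and WT. Without the 48 hr libraries, 1 was called between *snf1*∆ and WT at log (*GSY1*), with *GLG1* at 0.02, and 7 between JS1416 and WT at 24 hr. Without the 2 doubted libraries, 5 were called in *snf1*∆ from 24 to 48 hr, 1 between *snf1*∆ and WT at log (*GSY1*), 5 between JS1416 and *snf1*∆ at 48 hr and 7 between JS1416 and WT at 24 hr. *GDB1* (-0.68), *GLG2* (-0.46) and *GSY1* (-0.26) then turned in *snf1*∆ from 24 to 48 hr, *GDB1* now called (edgeR adjusted p = 0.00332), and *GSY2* (0.02) between *snf1*∆ and WT at 48 hr. The cause was not tested. The counts here and in the next paragraph show how calls moved with the processing. They have no share of all genes beside them, so they cannot be set against all genes.

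With each library left out in turn, the counts ran from 1 to 5 between JS1416 and WT at 24 hr (1 without JS1416 replicate 1 at 24 hr, 5 without *snf1*∆ replicate 3 or JS1416 replicate 1 at 48 hr). They ran from 4 to 10 in WT from 24 to 48 hr (4 without WT replicate 1 or 2, and 10 without *snf1*∆ replicate 3, at 48 hr) and from 2 to 4 in *snf1*∆ (4 without *snf1*∆ replicate 2 or 3 or JS1416 replicate 1 at 48 hr). At 48 hr they ran from 0 to 3 between JS1416 and *snf1*∆ (3 without *snf1*∆ replicate 3) and from 4 to 7 between *snf1*∆ and WT (4 without *snf1*∆ replicate 2). In *snf1*∆ from 24 to 48 hr, *GLG1* ran from -0.91 to 0.21, *GLG2* from -0.46 to 1.39, *UGP1* from -0.07 to 0.16, *GSY1* from -0.26 to 1.42, *GSY2* from -0.05 to 0.20 and *GDB1* from -0.68 to 0.84. Between *snf1*∆ and WT at log, *GLG1* ran from -0.09 to 0.08, *PGM2* from -0.21 to 0.13, *GLC3* from -0.07 to 0.25 and *GPH1* from -0.02 to 0.49. Between *snf1*∆ and WT at 48 hr, *UGP1* ran from -0.01 to 0.31 and *GSY2* from -0.17 to 0.05, and between JS1416 and WT *UGP1* ran from -0.03 to 0.29. Between JS1416 and *snf1*∆ at 48 hr, *GLG1* ran from -0.35 to 0.97, *GLG2* from -0.28 to 1.84, *UGP1* from -0.10 to 0.06, *GAC1* from -0.35 to 0.01 and *GLC3* from -0.00 to 0.61. A lone JS1416 library left at 24 hr is assumed to vary like the other groups.

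With the replicate block, 128 of 130 values kept their call, and *GSY1* (-1.33) and *GAC1* (-0.47) became called between JS1416 and WT at 48 hr, for 7 genes in place of 5. Same-numbered libraries correlated above 0.1 in all 3 pairs for 1 of 21 pairs of groups, WT and *snf1*∆ at log, where 0 genes were called with and without the block. The other groups share only a number. Depth was lowest in JS1416 replicate 3 at 48 hr, with 747098 counts, and *GLG2* had 9 counts in each of *snf1*∆ replicates 1 and 2 at 48 hr.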
